A study of Homo sapiens with 4 samples.

Results

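The genes described here are the G1 checkpoint genes CCND1, CCND2, CCND3, CDK4, CDK6, CDKN1A, CDKN1B, CDKN1C, CDKN2C and RB1, 10 of the 43714 genes in the deposited count table. They were chosen by symbol, each matched to a single Ensembl gene ID, and all 10 passed the filter on low counts. The libraries come from MDA-MB-231, a human cell line from a breast cancer without hormone receptors. Both groups carry the stably transfected 7TGP vector, in which 7 TCF binding sites drive EGFP, and both were selected with puromycin at 3 ug/mL. They were grown in medium with 10% serum. The reporter-negative line MDA-MB-2317TGP-NEG (NEG below) and the reporter-positive line MDA-MB-2317TGP-POS (POS below) were obtained from that stock by 8 rounds of sorting and expansion, to more than 95% EGFP-negative and more than 80% EGFP-positive cells. There were 2 RNA-seq libraries per line, all given the same batch, with total counts of 55894092 to 63034563. Each group is a single sorted population, so effects of reporter activity and of anything else that sets NEG and POS apart cannot be told apart. Nothing in the labels says that libraries come from separate cultures, and the p-values therefore cover only a spread between libraries that may be technical. In bulk RNA, fewer cells of a type and less RNA per cell cannot be told apart.

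D-type cyclins are the regulatory subunits of the kinases CDK4 and CDK6, and their genes are switched on by growth factor signalling. The active complexes phosphorylate the retinoblastoma protein RB1, which then releases E2F transcription factors, and the cell enters S phase. The Cip/Kip inhibitors p21 (CDKN1A), p27 (CDKN1B) and p57 (CDKN1C) bind cyclin-CDK complexes, while the INK4 inhibitors, among them p18 (CDKN2C), bind CDK4 and CDK6 alone. CCND1 is widely listed as a target of beta-catenin and TCF, and CDKN1A is the classic target of p53, which is mutated in MDA-MB-231.

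Because the D cyclin genes are related and did not move alike, a stretch of coding sequence from each is shown first. The coding sequences of CCND1 and CCND2 are identical at 71.8% of their 847 aligned bases, those of CCND1 and CCND3 at 69.8% of 822 and those of CCND2 and CCND3 at 71.6% of 847 (GENCODE 29 transcripts, GRCh38). The 90-base windows below hold the longest exact run shared by CCND1 and CCND2, which is 23 bases (gccacctggatgctggaggtctg) across the junction of exons 1 and 2. Capitals mark bases that differ from CCND1 at the same aligned position. The windows run from chr11:69641464-69643072 (forward strand) for CCND1, chr12:4274188-4276046 (forward) for CCND2 and chr6:41940544-41941499 (reverse) for CCND3, intron 1 left out, in each case in coding exons 1 and 2.
CCND1: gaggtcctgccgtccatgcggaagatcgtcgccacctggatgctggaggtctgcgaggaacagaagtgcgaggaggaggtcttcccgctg
CCND2: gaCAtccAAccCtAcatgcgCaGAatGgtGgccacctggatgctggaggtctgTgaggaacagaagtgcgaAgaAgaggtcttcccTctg
CCND3: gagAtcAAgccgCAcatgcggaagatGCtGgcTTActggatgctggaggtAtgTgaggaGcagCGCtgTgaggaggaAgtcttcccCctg
CCND2 differs from CCND1 at 15 of these 90 bases and CCND3 at 20. The longest run shared in coding sequence was 16 bases for CDK4 and CDK6 and 12 to 14 bases between pairs of Cip/Kip genes. The length of the reads is not given in the sources used here.

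Levels are given in CPM, the counts of a gene divided by its library's TMM-scaled total, which corrects for depth and composition. In POS, CCND2 rose 3.62-fold, CCND1 fell to 70.7% and CDKN1A fell to 68.7% of the NEG level. The other 7 members, CCND3, CDK4, CDK6, CDKN1B, CDKN1C, CDKN2C and RB1, did not pass edgeR's quasi-likelihood test at a Benjamini-Hochberg adjusted p under 0.05. Thus 1 member rose and 2 fell, 3 of 10, beside 22.4% of all 30952 genes tested (11.6% higher and 10.9% lower). With a filter at 1 CPM in 2 libraries, 3 of 10 members were called beside 6825 of 22016 genes. The median log2 fold change was 0.03 over the members and -0.00 over all genes, and CCND2 was the 1 member past a 2-fold change (10.0%, beside 5.55% of all genes). With scaling to total counts, 5 members were called, 1 higher and 4 lower, the additional calls being CCND3 and CDKN1C. Under it the median over all genes shifted by -0.08 on the log2 scale and the share of higher genes among all calls went from 51.5% to 36.0%.

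**Figure D1:**
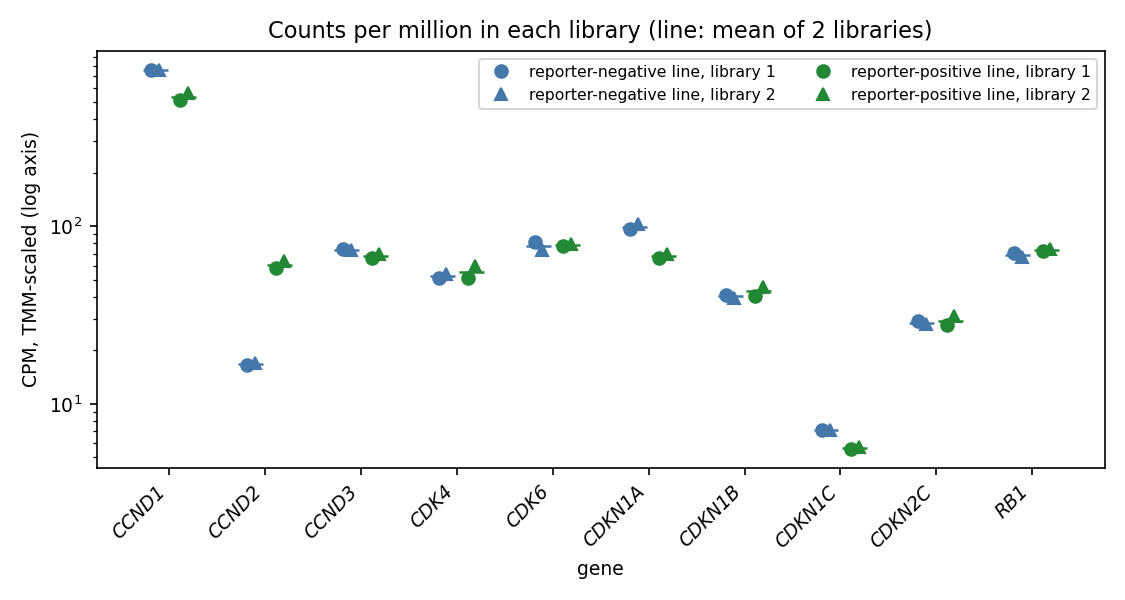
TMM-scaled CPM (log axis) of the 10 members in each of the 4 libraries; circles and triangles are libraries 1 and 2 of a line, and short lines are means. CCND1 sits highest in each library, the POS points of CCND2 lie above 57 CPM against about 17 CPM in NEG, and CCND1 and CDKN1A lie lower in POS.

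The label of the lines was checked with AXIN2, a general feedback target of the Wnt pathway, since the reporter itself is not listed; AXIN2 overlaps ENSG00000266076. It was at 11.1 and 11.8 CPM in the NEG and 19.0 and 18.1 CPM in the POS libraries, and rose (edgeR, Benjamini-Hochberg adjusted p = 5.26e-06). The 6 mesenchymal markers of MDA-MB-231 were all expressed, at line means of 113 to 2670 CPM, with a summed level of 4630 to 4725 CPM in the NEG and 3158 to 3416 CPM in the POS libraries. Of these markers VIM fell, from 2670 to 1300 CPM, and so did CAV1, from 158 to 113 CPM, while CD44 rose from 239 to 281 CPM and FN1, AXL and ZEB1 did not pass. The 8 luminal markers summed to 520 to 550.4 CPM and 370.2 to 394 CPM, mostly from KRT19. Of the luminal markers, KRT19 fell from 440 to 303 CPM and ERBB2 from 81.1 to 64.1 CPM. FOXA1 rose from 0.0877 to 0.749 CPM, while ESR1, PGR, EPCAM, CDH1 and GATA3 did not pass. The 4 leukocyte and 3 fibroblast markers summed to 2.62 to 5.52 CPM and 4.08 to 6.89 CPM, and the 3 endothelial markers to 74.9 to 90.001 CPM and 60.3 to 77.6 CPM, nearly all from PECAM1, which did not pass; no marker was at 0 in all libraries. The part of these markers in the results below was not tested.

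CCND1 (ENSG00000110092, chr11:69641087-69654474, forward strand) encodes cyclin D1, the D cyclin most often amplified in breast cancer. Its level was 757 and 759 CPM in the NEG and 514 and 558 CPM in the POS libraries. Both POS libraries lay below both NEG ones. The mean fell from 758 ± 1.77 to 536 ± 31.6 CPM (SD, n = 2), which gave a log2 fold change of -0.50 (standard error 0.09) and a 95% interval of -0.68 to -0.32 (edgeR, Benjamini-Hochberg adjusted p = 1.83e-04). The gene LTO1, on the opposite strand, overlaps the last 1399 bases of CCND1, and its own counts came to 33.9% of those of CCND1. Since reads were counted at each gene they overlap, on either strand, reads from that overlap entered both counts. LTO1 fell as well, from 253 to 185 CPM, or to 73.1% of the NEG level (adjusted p = 1.08e-04 by the same test). With all LTO1 counts taken away, the rest of CCND1 stood at 505 ± 3.59 and 351 ± 23.5 CPM (SD, n = 2), a ratio of 0.695, close to that of the whole gene. Only 6.26% of the LTO1 span lies in the overlap, so reads that never entered the CCND1 count may be taken away. These remaining levels may therefore be too low. Because LTO1 changed much like CCND1, taking it away could alter the ratio only a little. Of the 20 nearest tested genes that do not overlap CCND1, spread over 1.49 Mb, 4 fell and 0 rose, with a median log2 fold change of -0.25; their part in the lower CCND1 level was not tested.

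CCND2 (ENSG00000118971, chr12:4273772-4305350, forward strand) encodes cyclin D2. It stood at 16.6 and 16.9 CPM in the NEG and at 57.8 and 63.7 CPM in the POS libraries. The lines were far apart relative to the difference between libraries of a line. Its mean rose from 16.8 ± 0.225 to 60.7 ± 4.19 CPM (SD, n = 2), which gave a log2 fold change of 1.85 (standard error 0.08) and a 95% interval of 1.69 to 2.02 (edgeR, Benjamini-Hochberg adjusted p = 4.34e-13). The antisense gene CCND2-AS1 shares 2413 bases with the 5′ part of CCND2 and rose as well, from 155 and 131 counts to 481 and 412. Its counts came to 13.01% of those of CCND2, and the rest of CCND2 rose 3.65-fold without them. With only 8.8% of the CCND2-AS1 span in the overlap, that subtraction may take away too many reads. ENSG00000285901, a gene model on the same strand, spans all of CCND2 and extends beyond it. It counted 1592 and 1558 in the NEG and 4279 and 3874 in the POS libraries. CCND2 itself counted 1056 and 1041 in the NEG and 3628 and 3337 in the POS libraries. Reads within the CCND2 span cannot be assigned to either gene model, and those beyond it were not analysed separately. Among the 20 nearest tested genes outside these overlaps, 4 rose and 0 fell, with a median log2 fold change of 0.17 and a highest value of 1.35, below that of CCND2.

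CCND3 (ENSG00000112576, chr6:41934933-42050357, reverse strand), which encodes cyclin D3, was at 74.1 and 73.4 CPM in the NEG and 65.8 and 69.5 CPM in the POS libraries. The libraries of the lines did not overlap, but the gap was small: the log2 fold change was -0.13 with a 95% interval of -0.27 to 0.02 (edgeR, Benjamini-Hochberg adjusted p = 0.240). Leaving out POS library 2, CCND3 passed (log2 fold change -0.17, adjusted p = 0.0362 by the same test), and over all settings the adjusted p ran up to 0.665. Its chromosomal surroundings were lower: 14 of the 20 nearest tested genes, over 1.06 Mb, fell and 0 rose, with a median log2 fold change of -0.40. That median lies outside the interval for CCND3, though the difference between the gene and its neighbours was not tested.

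Levels of different genes were compared per length, on both the length of merged exons and that of the whole gene span, because the counts cover introns. CCND1 was the highest member in both lines on both scales, at 157 ± 0.366 and 111 ± 6.54 CPM per kb of exons (SD, n = 2) in the NEG and POS line. CCND2 was at 2.35 ± 0.0314 and 8.49 ± 0.585 CPM per kb of exons (SD, n = 2), the lowest of the 10 members in NEG and the eighth in POS. CCND3 lay between them on that scale, at 12.7 ± 0.0834 and 11.7 ± 0.459 CPM per kb of exons (SD, n = 2). Counts of overlapping genes were left in these levels. The largest were those of ENSG00000285901, equal to 124.7% of the CCND2 count, and of TSPAN31, equal to 57.4% of the CDK4 count. In NEG the order per kb of exons was CCND1, CDKN1A, CDK4, CDKN1B, CCND3, RB1, CDKN2C, CDK6, CDKN1C and CCND2, and no neighbours in it overlapped between libraries. In POS CCND2 moved up to follow CDKN2C, and the libraries of CDK4 and CDKN1B, of CCND3 and RB1, and of CDKN2C and CCND2 overlapped. On the span scale CCND2 and CCND3 changed places between the lines, with CCND2 at 0.532 ± 0.00712 and 1.92 ± 0.133 and CCND3 at 0.639 ± 0.00419 and 0.586 ± 0.0231 CPM per kb of span (SD, n = 2).

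CCND2 made up 1.35% and 1.38% of the summed D cyclin level per kb of exons in the NEG libraries and 6.42% and 6.52% in the POS ones. CCND1 made up 91.2% and 91.3%, against 84.6% and 84.7%. The share of CCND1 thus stayed by far the largest while the CCND2 share was 4.74 times as high. The sum of the D cyclins per kb of exons was 172 ± 0.313 CPM in the NEG and 131 ± 7.59 CPM in POS (SD, n = 2), or 76.2% of the NEG value, so the gain in CCND2 was smaller in absolute level than the loss in CCND1. On the span scale the sum was at 73.6% and the CCND2 share was 4.91 times as high. These sums and shares were described without a test.

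**Figure D2:**
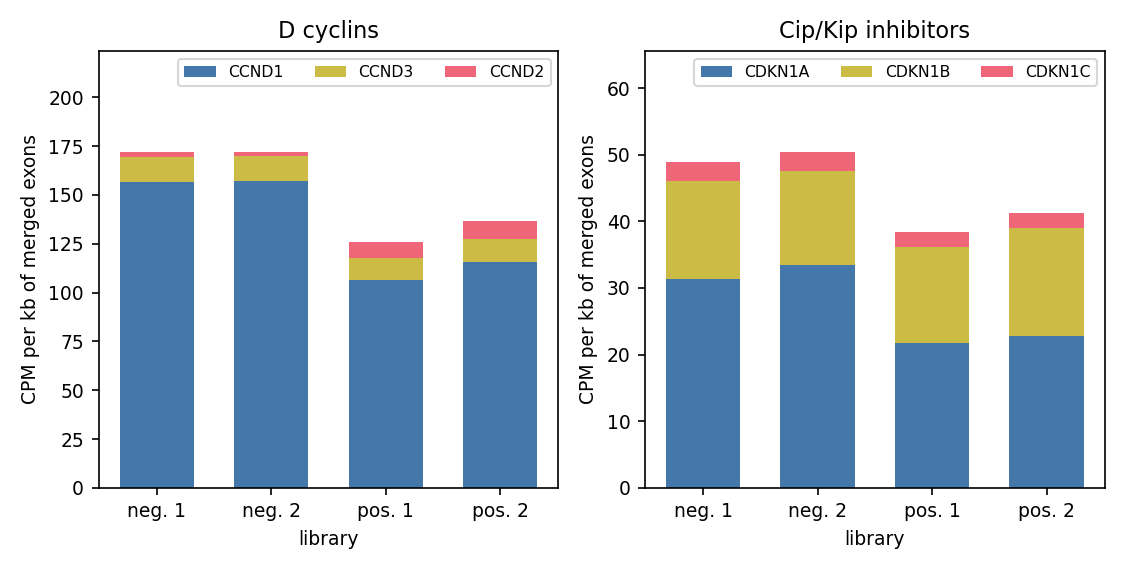
Stacked levels, in CPM per kb of merged exons, of the D cyclins (left) and the Cip/Kip inhibitors (right) in each library (neg., NEG; pos., POS). The D cyclin bars reach about 172 in the NEG and 126 to 136 in the POS libraries with a wider CCND2 layer, and the Cip/Kip bars shrink through the CDKN1A layer.

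CDK4 (ENSG00000135446, chr12:57747727-57756013, reverse strand) and CDK6 (ENSG00000105810, chr7:92604921-92836594, reverse strand) encode the kinases that D cyclins activate. CDK4 was at 51.0 and 54.0 CPM in the NEG and 51.0 and 59.4 CPM in the POS libraries. The libraries of the lines overlapped, and the log2 fold change was 0.07 with a 95% interval of -0.10 to 0.24 (edgeR, Benjamini-Hochberg adjusted p = 0.609). Leaving out POS library 1, CDK4 passed (log2 fold change 0.18, adjusted p = 0.0304 by the same test), but its direction turned with total count scaling (-0.017) and without POS library 2 (-0.050), and the adjusted p ran up to 0.921. TSPAN31, which overlaps CDK4 on the opposite strand, had counts equal to 57.4% of those of CDK4, and less them the rest of CDK4 was at 21.8 ± 1.37 and 24.0 ± 1.14 CPM (SD, n = 2). Only 20.4% of the TSPAN31 span lies in the overlap, so these remaining CDK4 levels may be too low. CDK6 stood at 81.0 and 72.9 CPM against 76.8 and 79.7 CPM, and the POS libraries lay within the NEG range. Its log2 fold change was 0.02, with a 95% interval of -0.13 to 0.18 that leaves out changes of more than 1.13-fold upward (edgeR, Benjamini-Hochberg adjusted p = 0.878).

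Per kb of exons, CDK4 was above CDK6 in each library, with 70.9% and 74.1% of their sum in the NEG and 72.0% and 74.3% in the POS libraries. The share thus overlapped between the lines. Counts of TSPAN31 and MARCHF9, which both overlap CDK4, came to 57.4% and 19.3% of the CDK4 count. They were not taken away here, so part of the CDK4 level may be reads of these genes, and the order without them was not tested. On the span scale CDK4 made up 94.6% to 95.4% of the sum, since CDK6 spans 231.7 kb and CDK4 8.29 kb.

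CDKN1A (ENSG00000124762, chr6:36676460-36687339, forward strand) encodes p21, which inhibits CDK2 complexes and also helps to assemble cyclin D with CDK4 and CDK6. It was at 95.7 and 102 CPM in the NEG and 66.5 and 69.6 CPM in the POS libraries. The lines did not overlap. The mean fell from 99.0 ± 4.53 to 68.0 ± 2.20 CPM (SD, n = 2), which gave a log2 fold change of -0.54 (standard error 0.07) and a 95% interval of -0.69 to -0.39 (edgeR, Benjamini-Hochberg adjusted p = 1.03e-05). No listed gene overlaps CDKN1A, and in a fit restricted to the 9888 tested genes without an overlapping gene its log2 fold change was -0.56 (adjusted p = 2.19e-06 by the same test). Of its 20 nearest tested genes over 0.860 Mb, 5 fell and 0 rose, with a median log2 fold change of -0.15; their part in the lower CDKN1A level was not tested.

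CDKN1A is the 1 called member with a window in the RefSeq promoter table (GRCh38.p14), so the 250 bases before its transcription start are shown, chr6:36678464-36678713, forward strand. They lie inside the GENCODE span of the gene, downstream of its first annotated base. Capitals mark matches to the GC box letters GGGCGG, a motif bound by Sp1, of which 4 were found, all on the forward strand and starting 104, 94, 45 and 40 bases before the start site; the last pair shares 1 base.
CDKN1A: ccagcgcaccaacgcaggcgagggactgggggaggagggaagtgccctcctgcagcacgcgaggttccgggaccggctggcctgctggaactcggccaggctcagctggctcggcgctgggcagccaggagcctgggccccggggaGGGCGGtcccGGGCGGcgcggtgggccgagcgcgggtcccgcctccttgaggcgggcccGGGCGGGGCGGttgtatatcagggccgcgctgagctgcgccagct
GGGCGG on either strand is in 15786 of the 35116 promoter windows of 300 bases in the table, and in 8 of the 12 windows of the 7 members listed there. The TCF letters CTTTGAA or CTTTGAT, on either strand, are in 6.86% of all windows and in 0 of these 12. A match describes letters in the window, not binding, and the windows of CCND1, CCND2 and CDKN1C were not analysed here.

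CDKN1B (ENSG00000111276, chr12:12715058-12722371, forward strand), the gene of p27, was at 41.1 and 39.6 CPM in the NEG and 40.5 and 45.6 CPM in the POS libraries. The libraries overlapped, with a log2 fold change of 0.09 and a 95% interval of -0.07 to 0.25 (edgeR, Benjamini-Hochberg adjusted p = 0.462). CDKN1C (ENSG00000129757, chr11:2883213-2885773, reverse strand), the imprinted gene of p57, had the lowest CPM of the members, at 7.07 and 7.11 in the NEG and 5.59 and 5.69 in the POS libraries. Both POS libraries were lower, with 298 to 449 counts per library over both lines, but the gene did not pass: the log2 fold change was -0.33 with a 95% interval of -0.59 to -0.07 (edgeR, unadjusted p = 0.0140, Benjamini-Hochberg adjusted p = 0.0595). It passed with total count scaling (log2 fold change -0.42, adjusted p = 0.0416 by the same test) and among genes without an overlapping gene (log2 fold change -0.35, adjusted p = 0.0403), and over all settings tried the adjusted p ran from 0.0314 to 0.281.

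Within the Cip/Kip family, CDKN1A made up 64.2% and 66.4% of the summed level per kb of exons in the NEG and 56.6% and 55.2% in the POS libraries, and CDKN1B made up 29.9% and 27.9% against 37.5% and 39.3%. The lines did not overlap in either share. The summed level was 49.7 ± 1.12 and 39.9 ± 2.02 CPM per kb of exons (SD, n = 2), so POS had 80.3% of the NEG sum, close to the 76.2% for the D cyclins. Neither sum was tested, nor was their difference.

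CDKN2C (ENSG00000123080, chr1:50960745-50974633, forward strand), the gene of the INK4 inhibitor p18, was at 29.3 and 28.0 CPM in the NEG and 27.7 and 31.1 CPM in the POS libraries. The POS libraries lay on either side of the NEG ones. Its log2 fold change was 0.04 with a 95% interval of -0.13 to 0.20 (edgeR, Benjamini-Hochberg adjusted p = 0.827). The INK4 genes CDKN2A and CDKN2B, homozygously deleted in MDA-MB-231, were too low to test: CDKN2A had 3 and 3 counts in the NEG and 9 and 5 in the POS libraries, and CDKN2B had 0 and 0 against 3 and 2. For CDKN2B a count of 0 allows up to 0.0472 and 0.0488 CPM (3 counts) in NEG libraries 1 and 2. The gene of the remaining INK4 inhibitor, CDKN2D, stood at 20.2 ± 0.294 and 19.1 ± 0.702 CPM (SD, n = 2) and did not pass (adjusted p = 0.543 by edgeR).

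RB1 (ENSG00000139687, chr13:48303726-48599436, forward strand), the substrate of the cyclin D kinases and brake on E2F, was at 70.7 and 67.2 CPM in the NEG and 72.9 and 74.5 CPM in the POS libraries. The libraries did not overlap, but the log2 fold change of 0.09 had a 95% interval of -0.05 to 0.24 (edgeR, Benjamini-Hochberg adjusted p = 0.401). The processed pseudogene PCNPP5, inside the RB1 span, had 822 to 960 counts per library, equal to 20.9% of the RB1 count, and reads there need not come from RB1. Without them RB1 stood at 53.6 ± 2.85 and 59.2 ± 0.805 CPM (SD, n = 2). LPAR6 and RCBTB2, protein-coding genes whose annotated spans lie wholly inside RB1 on the opposite strand, had 4.31% and 4.53% of its count.

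**Figure D3:**
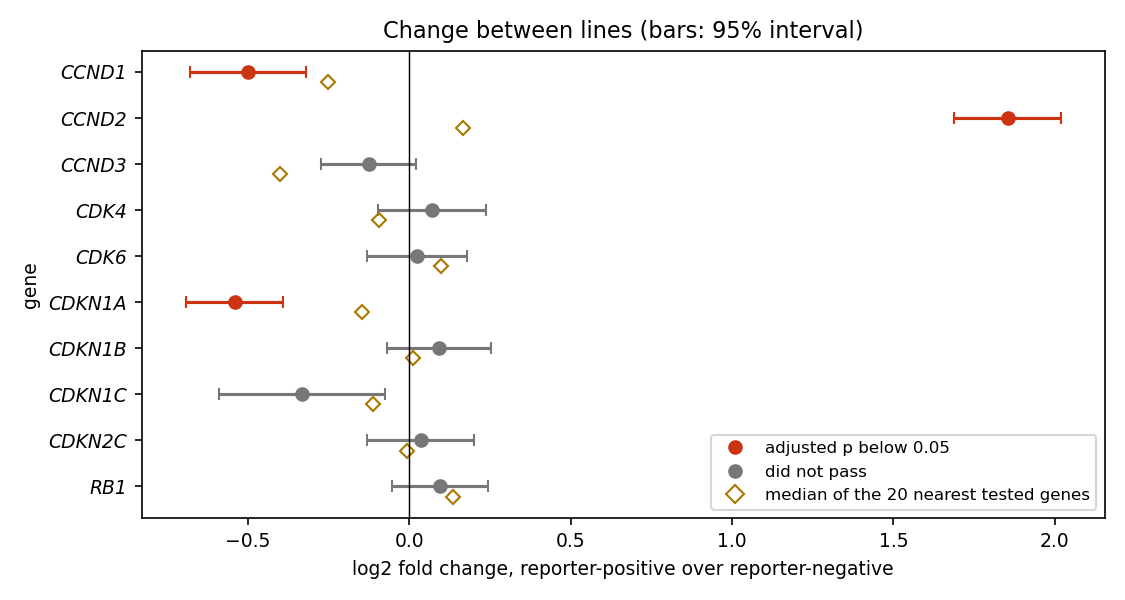
Log2 fold change of each member (POS over NEG; circles, with 95% intervals) and the median over its 20 nearest tested genes on the chromosome (open diamonds). CCND2 stands at 1.85 and its neighbours' median at 0.17, CCND1 and CDKN1A lie below their neighbours' medians, and CCND3 lies above the median of -0.40 around it.

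The remaining G1/S genes were read from a list of 52 further genes with known roles in this pathway, of which all but CDKN2A and CDKN2B could be tested. Of 50 tested, 8 rose, 8 fell and 34 did not pass, so 32.0% were called beside 22.4% of all genes, and the median log2 fold change was -0.00. The base of all genes holds many with low counts. With a filter at 1 CPM in 2 libraries, 17 of the 50 were called beside 6825 of 22016 genes. None of the 50 changed 2-fold. With total count scaling 4 rose and 9 fell, with DESeq2 4 rose and 7 fell, and without NEG library 1 or 2, 3 rose and 5 fell or 2 rose and 6 fell.

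Among the genes of this list that fell, E2F7, an atypical E2F that represses E2F targets, was at 195 and 174 CPM in the NEG and 136 and 125 CPM in the POS libraries and fell to 70.6% (edgeR, Benjamini-Hochberg adjusted p = 6.40e-05). Its relative E2F8, which overlaps the more highly counted CSRP3-AS1, fell to 66.3% from 7.59 CPM, and E2F1, the activator released by RB1, fell to 75.4% from 36.4 CPM. RBL2, which encodes the RB-related protein p130 and overlaps AKTIP, fell to 78.7% from 46.3 CPM. SKP2, part of the ubiquitin ligase that marks p27 for degradation, fell to 77.6%, but did not pass without NEG library 1 (adjusted p = 0.120 by edgeR). SKP2 also overlaps another listed gene. E2F2, E2F3, E2F4, E2F5 and E2F6 did not pass, nor did the RB relative RBL1 or the E2F partner genes TFDP1 and TFDP2.

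HSP90AB1, which with CDC37 folds CDK4 and whose sequence is shared with pseudogenes, was at 752 and 790.4 CPM in the NEG and 513 and 575 CPM in the POS libraries and fell to 70.6% (edgeR, Benjamini-Hochberg adjusted p = 2.39e-04). CDC37 itself was at 213 ± 8.95 and 212 ± 2.24 CPM (SD, n = 2; adjusted p = 0.957). Among the 59 other tested members and pathway genes, HSP90AB1 had the profile closest to that of CCND1 (Euclidean distance 0.06 between centred log2 CPM over the 4 libraries) and also to that of CDKN1A (distance 0.08), and CCND1 and CDKN1A were each other's next closest (distance 0.08). With 4 libraries these distances describe little more than a like fold change. HSP90AB1 lies on chromosome 6 (chr6:44246166-44253888), as do CDKN1A and CCND3. CCND3 is not among these closest profiles, and CCND1, which is, lies on chromosome 11. Of the 20 nearest tested genes, 5 fell and 0 rose around CDKN1A, and 14 fell and 0 rose around CCND3. The part of location in the like profiles was not tested.

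Among the genes that rose, CDKN3, a phosphatase that acts on CDK1 and CDK2, went from 14.8 and 12.2 to 22.1 and 20.1 CPM, a 1.56-fold rise (edgeR, Benjamini-Hochberg adjusted p = 4.74e-05). FBXO4, named as a ubiquitin ligase subunit for cyclin D1, rose 1.52-fold from 4.58 CPM. The mitotic cyclin gene CCNB1 rose 1.28-fold from 85.1 CPM and CCNA2, the S phase cyclin gene, which overlaps EXOSC9, rose 1.25-fold from 62.0 CPM. The other B-type cyclin gene of the list, CCNB2, fell to 82.8% from 36.0 CPM (adjusted p = 0.0160 by edgeR), but did not pass without NEG library 1 (0.0952), NEG library 2 (0.164) or POS library 1 (0.0694). CDC25A, the phosphatase that activates CDK2, rose 1.22-fold and LIN52, a subunit of the DREAM complex, rose 1.24-fold. CKS1B and CDK1 also rose and LIN37 fell, and each did not pass with DESeq2 or without NEG library 1, NEG library 2 or POS library 2 (adjusted p of 0.0645 to 0.333). CKS1B and CDK1 did not pass with total count scaling either (0.241 and 0.193), nor did CDK1 among genes without an overlapping gene (0.0519). Of the rises, those of CCNB1, CCNA2, CDC25A and LIN52 were not called in all settings: CCNB1 was lost without NEG library 2 (adjusted p = 0.0822 by edgeR), CCNA2 without NEG library 1 or 2 (0.0687 and 0.0805), and CDC25A and LIN52 without either as well (0.163 and 0.145, 0.0795 and 0.369). CDC25A was also lost without POS library 2 (0.0703). With total count scaling CDC25A and LIN52 did not pass (0.153 and 0.188), nor did they with DESeq2 (0.0619 and 0.101). CDC25A, CCNB2, CKS1B and LIN37 also overlap other listed genes. The cyclin E genes CCNE1 (1.70 CPM in NEG, 1.63 CPM in POS) and CCNE2 (10.9 and 10.4 CPM) did not pass, nor did their kinase gene CDK2, at 34.8 and 40.4 CPM (edgeR, Benjamini-Hochberg adjusted p = 0.0506).

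**Figure D4:**
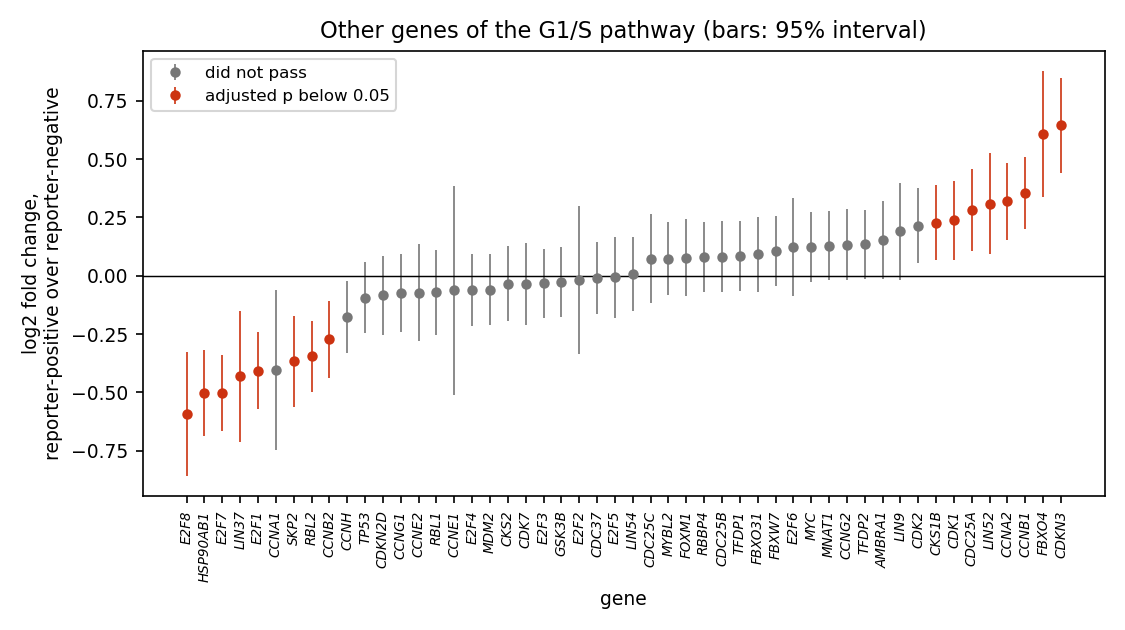
Log2 fold change (POS over NEG, with 95% intervals) of the 50 tested genes of the wider G1/S list, ordered by value. The 8 genes that fell stand at the left with CCNA1, which did not pass, among them, the 8 that rose stand at the right, and no value reaches a log2 change of 1 in either direction.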

How the data were processed

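RNA was sequenced from 2 libraries of each line, made from 1 ug of RNA, per the labels' protocols. The authors deposited raw read counts per Ensembl gene ID, with no other sample columns; per the submitters' processing notes, the tools included HISAT2, Bowtie2 and DESeq2 and the build hg19, with no version or role. How reads were counted, and with which strand setting, is not given in the sources used here. The 43714 IDs are all in GENCODE 29 (GRCh38), which supplied positions and lengths. In all 1235 same-strand and 1844 opposite-strand cases where a gene of at least 100 counts lies inside another without sharing an exon, the host's count was at least as high in all libraries, so counts cover introns on both strands and a read counts at each gene it overlaps.

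Counts were tested with edgeR 4.0.16 (R 4.3.3) after filterByExpr by line (minimum count 10, total 15) and TMM scaling, with the robust quasi-likelihood F test, line as the only term, Benjamini-Hochberg adjustment over all genes kept, threshold 0.05. CPM values use TMM-scaled library sizes; intervals are 95% from the fit's standard error. The test was checked on simulated data. Libraries of a line differed beyond sampling noise (37.0 and 19.3 in chi-square per degree of freedom), so no library was a copy. Alternatives were DESeq2 1.42.0, limma-voom (limma 3.58.1), scaling by RLE or total counts, no filter or 1 CPM in 2 libraries, a block on library number, omission of each library, and genes without an overlapping gene. Neighbours are the 10 nearest tested genes on each side. Promoters are from RefSeq. Protein sequences were not used here.

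The members and gene lists were chosen with earlier results of these data known. Genes named are the members, up to 6 pathway genes in each direction with the smallest adjusted p, CDKN2A, CDKN2B, AXIN2, overlapping genes and closest profiles; CDKN2D, CDC37, CCNE1, CCNE2, CDK2, CCNB2, CKS1B, CDK1, LIN37, CCNA1, RBL1, TFDP1, TFDP2, the other E2F genes, the markers and those of the closing section were named after their values were seen.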

Additional observations from a re-analysis of the deposited data

How the results depend on the processing

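CCND2, CCND1 and CDKN1A kept their direction and their call in all 12 alternatives in which each could be fitted (11 for CCND1 and CCND2, which overlap other genes). CCND2 had log2 fold changes of 1.77 to 1.93, CCND1 of -0.59 to -0.44 and CDKN1A of -0.63 to -0.50. With total count scaling 5 members were called, adding CCND3 (-0.21) and CDKN1C (-0.42). The cause was not tested beyond the shift of -0.08 that this scaling gave all genes. Among genes without an overlapping gene CDKN1C passed at -0.35, and 2204 of 9888 genes, 2 of 3 members, 7 of 21 pathway genes and 2 of 12 other cyclins and CDKs were called, fewer because fewer were tested. Leaving out each library gave 3 to 4 members called, 4358 to 9161 of all genes, 8 to 21 pathway genes and 2 to 10 other cyclins and CDKs, and log2 fold changes of -0.17 to -0.083 for CCND3 and -0.050 to 0.18 for CDK4. The lone library left in a line is then assumed to vary like the others. Deviations of same-numbered libraries correlated at -0.03, which gave no sign of pairing by number but cannot exclude it. With the library number as a block CDKN1C passed (-0.33), and 8226 of all genes and 4 members were called. CDKN2A and CDKN2B had too few counts to test.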

Other observations

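The other cyclin and CDK genes, 29 tested genes taken by symbol after the data were seen, mostly act outside the G1 checkpoint, in transcription or other kinase functions. Of them 2 rose and 4 fell, or 20.7% beside 22.4% of all genes. With a filter at 1 CPM in 2 libraries, 7 of 27 were called beside 6825 of 22016 genes. CDK14, whose kinase works with cyclin Y on the Wnt co-receptor LRP6 and which overlaps CLDN12, was at 24.9 and 23.9 CPM in the NEG and 34.9 and 33.5 CPM in the POS libraries and rose 1.40-fold (edgeR, Benjamini-Hochberg adjusted p = 6.20e-05). CCNY, its cyclin partner gene, stood at 72.8 ± 2.49 and 78.4 ± 4.68 CPM (SD, n = 2) and did not pass (adjusted p = 0.347 by the same test). CDK8, a kinase of the Mediator complex, rose 1.22-fold from 9.51 CPM (adjusted p = 0.0443). CDK9, the elongation kinase, fell to 82.1% from 42.0 CPM, and CCNL2, a cyclin linked to splicing, fell to 78.3% from 104 CPM. CDK20 fell to 57.3% from 2.22 CPM, and CDK3, which overlaps TEN1-CDK3 and EVPL, fell to 71.5% from 7.68 CPM. CDK8 and CDK9 also overlap other listed genes. CDK8 did not pass with total count scaling (adjusted p = 0.255), no count filter (0.0559), DESeq2 (0.12) or limma-voom (0.0504), nor without NEG library 1 (0.286), NEG library 2 (0.175) or POS library 1 (0.154). CDK9 did not pass without NEG library 1 (0.119) or 2 (0.0828), CDK20 without NEG library 1 (0.0597), and CDK3 and CCNL2 without NEG library 2 (0.162 and 0.0909). Without NEG library 1 or 2, or POS library 1, the counts of called genes were 3, 2 and 10.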
